A study of Mus musculus with 37 samples.

Results

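The comparison described here set the hearts of mice resuscitated from cardiac arrest (Arrest) against the hearts of mice given adrenaline without an arrest (Adr), both taken 1 day after the procedure. Its members were the 8 libraries of those groups among 37 in the series, and the 13246 genes of 56748 in the table that reached 0.5 FPKM in at least 4 of these 8 libraries. FPKM is the number of sequenced fragments scaled by gene length and by depth. The labels call the Adr mice sham.

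All mice were C57BL/6J animals of both sexes aged 8 to 10 weeks and were anaesthetised with isoflurane. Both groups compared were intubated, ventilated and injected through the chest wall into the left ventricle under ultrasound, with potassium chloride in Arrest and with saline in Adr. The Arrest mice spent 8 minutes in asystole and then had chest compressions, which the Adr mice did not have. Adrenaline (15 µg/mL) went into the ventricle in both groups. The contrast therefore holds arrest, potassium chloride, reperfusion and compressions together, and these cannot be told apart. The 5 Naïve mice had anaesthesia alone and are used below as a range only. RNA came from homogenised ventricle with the apex discarded.

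A heart that has been without flow and is then reperfused is known to switch on stress and cytokine genes within hours. Interleukin-6 family cytokines act through the kinase-activated factor STAT3, which switches on acute phase genes and its own inhibitor SOCS3. Resident macrophages, dendritic cells and B cells display peptides on MHC class II molecules, and cardiac fibroblasts make the collagens and small leucine-rich proteoglycans of the matrix. Cardiomyocytes draw most of their energy from mitochondrial respiration.

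The libraries held 13.6 M to 25.9 M fragments on genes in Adr and 14.0 M to 16.1 M in Arrest. The share of fragments on genes of the mitochondrial genome was 24.6 ± 2.87% in Arrest and 23.3 ± 1.76% in Adr (SD, n = 4 each, exact permutation test, two-sided p = 0.457). Ventricular cardiomyocyte markers were present in all 8 libraries, with a summed level of 13462 to 15845 FPKM in Arrest and 10945 to 14760 FPKM in Adr. The atrial markers Myl7, Sln and Myl4 stood highest in Adr replicates 2 and 3. Adr replicate 4 held a lesser signal, with 14.1, 1.12 and 6.64 FPKM of these genes, each above every Arrest heart. Results are therefore also given without Adr replicates 2 and 3 where that changes them. Such values keep Adr replicate 4 and so are not free of atrial RNA. Each sample carries a number in its description, and Arrest replicates 1 to 3 with Adr replicate 1 carried numbers 70 to 73 while Arrest replicate 4 with Adr replicates 2 to 4 carried numbers 95 to 102. What the numbers stand for is not given in the sources used here. They run almost with the groups, so differences within each run of numbers are given beside the results they touch. Where the groups do not overlap, the sign within both runs follows from that, and only the sizes are informative. Each group held 2 female and 2 male hearts by their sex-linked transcripts. Adr replicates 2 and 3 were the male Adr hearts. Values without them therefore set 2 female Adr hearts against Arrest hearts of both sexes, and atrial RNA and sex cannot be told apart there. Nothing in the labels says how far the samples of a group were handled apart, so p-values measure only the spread between these samples, which may be partly technical.

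No gene passed an adjusted p of 0.05 in limma's moderated test on log2(FPKM + 1), and the smallest adjusted p was 0.321. Limma's voom on fragment counts recovered from the FPKM values called 1 gene, Ogn, and the fit without Arrest replicate 4 called 4 genes and that without Adr replicate 4 called 2. Within an unadjusted p of 0.05 there were 1082 genes, or 8.17% of those tested, against 662 that this threshold passes by chance alone. Of them, 566 stood higher in Arrest (4.27% of all tested) and 516 lower (3.9%). The split depended on scaling, with 223 higher and 973 lower when each library was scaled to its fragments on genes, a scaling that shifted the median of all differences to -0.10, and 217 and 891 under voom, where the median was -0.11. Without Arrest replicate 3 the 1082 became 693. In simulated libraries of the same group sizes and depths the test called 51% of genes with a log2 change of 1 and 89% of genes with a log2 change of 2. The changed genes were drawn only from those averaging at least 2 FPKM. Runs of numbers and atrial signal were not simulated, so these shares may be too high for the real libraries and for low genes. The values below are therefore descriptions of differences that did not pass correction, and their adjusted p ran from 0.321 to 0.612 by limma wherever the unadjusted p was within 0.05. Differences are of mean log2(FPKM + 1), which understates the change of genes with low values. The median difference over all tested genes was 0.00.

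The groups did not overlap at 527 genes, 3.98% of those tested, with 238 higher (1.8%) and 289 lower (2.18%) in Arrest. Among those with a mean of at least 1 FPKM and a symbol that is not a predicted one, the 12 largest differences on each side were picked for description. The lower side held MHC class II genes, the immunoglobulin chain Ighm, interferon-inducible GTPases and matrix genes. The higher side held Socs3, Nfil3, Tnfaip6, Tnfrsf12a and several metabolic and muscle genes.

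**Figure D1:**
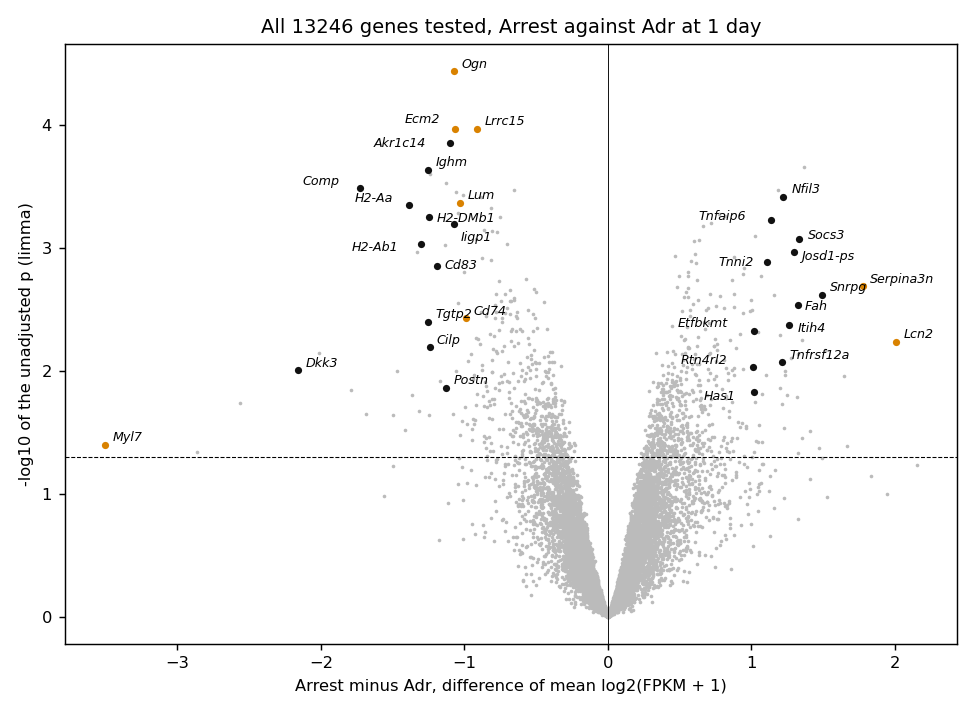
Each point is a gene, with the Arrest minus Adr difference of mean log2(FPKM + 1) on the x axis and the negative log10 of the unadjusted limma p on the y axis, where the dashed line marks the unadjusted threshold of 0.05. Black points are the 12 largest non-overlapping differences on each side, orange points are 8 other genes described in the text, and Ogn is the highest point of all at -1.07.

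The MHC class II genes stood lower in Arrest as a set. Of the 11 genes listed, 6 passed the filter. All 6 were lower within an unadjusted p of 0.05 where 3.9% of all genes were. At 5 of the 6 every Arrest heart was below every Adr heart, against 2.18% of all genes. The median difference of the 6 was -1.12. The promoters of class II genes are known to share a compact module that ends in a Y box, an inverted CCAAT element, and the 120 bases upstream of the start are shown for 3 of the genes because these genes stood lower together and carry that element. The sequences are from RefSeq on GRCm38.p6, each read 5′ to 3′ on the strand of its gene, with ATTGG or its complement CCAAT in capitals. The intervals are chr17:34287824-34287943 on the minus strand for H2-Aa, chr17:34305747-34305866 on the plus strand for H2-Eb1 and chr17:34153071-34153190 on the plus strand for H2-DMb1.
H2-Aa: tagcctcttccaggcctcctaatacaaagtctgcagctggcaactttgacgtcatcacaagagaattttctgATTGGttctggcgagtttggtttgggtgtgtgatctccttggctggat
H2-Eb1: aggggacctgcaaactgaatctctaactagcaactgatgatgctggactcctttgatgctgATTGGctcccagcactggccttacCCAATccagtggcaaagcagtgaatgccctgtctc
H2-DMb1: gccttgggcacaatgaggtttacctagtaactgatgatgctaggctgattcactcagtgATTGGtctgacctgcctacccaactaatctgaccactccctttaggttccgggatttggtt

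The first match began at position -48 in H2-Aa, -59 in H2-Eb1, which held 2 matches, and -61 in H2-DMb1, counted from the transcription start. ATTGG was searched on both strands, and 37.4% of the 32851 promoter windows of 300 bases held it, so the motif is common. The longest run of bases shared by the H2-Eb1 and H2-DMb1 stretches was aactgatgatgct, of 13 bases, at positions -89 and -92. It was found in 3 of all windows. H2-Aa did not hold it, and the longest runs that H2-Aa shared were of 8 bases. These were ctgattgg with H2-Eb1, found in 4.1% of windows, and tgattggt with H2-DMb1, found in 2.13%. A match of letters is a description and not a binding site.

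H2-Aa, the alpha chain of the I-A class II molecule, had 7.74, 7.99, 6.42 and 8.55 FPKM in Arrest replicates 1 to 4 and 36.6, 26.5, 16.2 and 13.7 FPKM in Adr replicates 1 to 4. Every Arrest heart lay below every Adr heart and the Arrest hearts lay close together, while the Adr hearts were spread widely. The log2 difference was -1.39 ± 0.27 (SE, unadjusted p = 0.00045). H2-Ab1, its beta chain partner, had 11.8, 9.39, 8.92 and 10.6 FPKM in Arrest and 45.3, 33.5, 17.0 and 18.9 FPKM in Adr, a difference of -1.31 ± 0.28. Again no Arrest heart reached the lowest Adr heart.

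Cd74, the invariant chain that escorts class II molecules to the endosome, had 57.5, 57.1, 53.7 and 47.2 FPKM in Arrest and 181, 129, 77.9 and 73.4 FPKM in Adr (log2 difference -0.99 ± 0.26, unadjusted p = 0.0037). H2-DMb1 and H2-DMa, the chains of the DM molecule that exchanges the invariant chain fragment for peptide, differed by -1.25 ± 0.25 and -0.60 ± 0.26. H2-Eb1, the beta chain of I-E, differed by -0.86 ± 0.31, with 16.5, 19.4, 12.7 and 18.0 FPKM in Arrest and 57.5, 37.4, 21.2 and 19.5 FPKM in Adr. The highest Arrest heart and the lowest Adr heart nearly touched at H2-Eb1, and the groups overlapped at H2-DMa.

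Adr replicate 1 was highest at all of these genes and carried none of the atrial signal, with Myl7 at 0.461 FPKM. Within the numbers 70 to 73 the H2-Aa difference was -2.17 and within 95 to 102 it was -1.0. With Adr replicates 2 and 3 left out it was -1.45. The Naïve hearts had 23.7 to 45.6 FPKM of H2-Aa and 128 to 176 FPKM of Cd74, so every Arrest heart lay below the Naïve range at both genes and the Adr hearts lay on either side of its lower end. In bulk tissue, fewer cells of a type and less RNA per cell cannot be told apart.

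Ighm, the heavy chain of immunoglobulin M made by B cells, had 2.15, 4.73, 1.81 and 2.22 FPKM in Arrest and 9.27, 6.58, 7.10 and 7.32 FPKM in Adr, a log2 difference of -1.25 ± 0.22 (unadjusted p = 0.00023). Ighm was lower in every Arrest heart and carried most of the B cell signal. The summed level of the 8 B cell markers ran from 2.38 to 6.05 FPKM in Arrest and from 7.61 to 12.7 FPKM in Adr, all 8 were seen in some library, and only Ighm and Cd79b passed the filter. The part of B cells in the class II result was not tested. The summed level of 14 resident macrophage markers overlapped, at 364 to 561 FPKM in Arrest and 300 to 596 FPKM in Adr, and none of the 14 reached an unadjusted p of 0.05.

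Cd83, a surface protein of mature dendritic cells and B cells, had 1.87, 1.94, 0.572 and 2.09 FPKM in Arrest and 7.96, 4.50, 3.59 and 3.94 FPKM in Adr (difference -1.19 ± 0.27). Ly86, the partner of the B cell and macrophage receptor CD180, differed by -1.06 ± 0.20 without overlap. Of 27 interferon response genes tested, 24 had a lower mean in Arrest, 3 were lower within an unadjusted p of 0.05 (3.9% of all genes) and none was higher, with a median of -0.28.

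Iigp1, an immunity-related GTPase, had 3.71, 4.21, 5.04 and 4.31 FPKM in Arrest and 15.4, 6.59, 11.6 and 8.94 FPKM in Adr, a difference of -1.08 ± 0.22 with no overlap. Tgtp2, a GTPase of the same family, differed by -1.26 ± 0.34. Bst2 (tetherin) differed by -0.85 ± 0.28 and Psmb9, an immunoproteasome subunit, by -0.53 ± 0.21, both with overlapping groups. The median of the interferon list was -0.88 within the numbers 70 to 73 and 0.37 within 95 to 102, so its direction was not the same in both runs. The class II median was -1.80 and -0.81.

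Matricellular, collagen and proteoglycan genes stood lower in Arrest too, but other matrix lists had few genes within an unadjusted p of 0.05. Of 21 matrix metalloproteases and their inhibitors 2 were higher and none lower. Of 24 basement membrane and elastic fibre genes 2 were higher and 3 lower, and of 19 collagen processing genes 1 was lower. Of all genes 4.27% were higher and 3.9% lower. The means leaned lower at 20 of the 24 basement membrane and elastic fibre genes and 17 of the 19 collagen processing genes. The medians of these lists were -0.20 and -0.12. A higher mean was held by 13 of the 21 metalloprotease and inhibitor genes, against 50.6% of all genes. Ogn (osteoglycin), a small leucine-rich proteoglycan of the collagen matrix, had the smallest unadjusted p of all genes tested (3.6e-05). Its values were 32.3, 25.0, 28.2 and 39.4 FPKM in Arrest and 63.7, 63.8, 60.4 and 76.3 FPKM in Adr, a log2 difference of -1.07 ± 0.15. The lowest Adr heart was well above the highest Arrest heart, and the Naïve hearts had 67.9 to 98.1 FPKM. Leaving out each library in turn moved the Ogn difference between -1.19 and -0.97.

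Lum (lumican), a proteoglycan that spaces collagen fibrils, had 33.2, 33.4, 29.3 and 39.5 FPKM in Arrest and 92.3, 84.6, 61.7 and 48.9 FPKM in Adr (difference -1.03 ± 0.20). Ecm2, a matrix protein related to the decorin family, differed by -1.07 ± 0.17, with 2.49 to 4.36 FPKM in Arrest and 6.13 to 9.65 FPKM in Adr. Dpt (dermatopontin), which binds decorin, differed by -0.60 ± 0.16. None of these overlapped between the groups. Aspn (asporin) differed by -0.51 ± 0.22 with overlap. Ogn, Aspn and Ecm2 are all on chromosome 13.

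Matricellular proteins signal between matrix and cells and are known for their part in scar formation. Of 21 tested, 9 were lower in Arrest within an unadjusted p of 0.05, against 3.9% of all genes, none was higher, and their median was -0.51. Comp, a pentameric thrombospondin, had 0.206, 0.545, 0.756 and 0.814 FPKM in Arrest and 2.73, 8.47, 5.29 and 2.22 FPKM in Adr, a difference of -1.73 ± 0.32 (unadjusted p = 0.00032). Every Arrest heart was below 1 FPKM and no Adr heart was. Lrrc15, a membrane protein of activated fibroblasts, had 0.627 to 0.844 FPKM in Arrest and 1.90 to 2.90 FPKM in Adr (-0.91 ± 0.15). The Naïve hearts had 4.03 to 6.76 FPKM of Lrrc15, so both groups lay below the Naïve range.

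Cilp, a matrix protein of fibroblasts, had 1.99, 2.45, 1.82 and 1.23 FPKM in Arrest and 3.01, 10.3, 9.89 and 3.12 FPKM in Adr, a difference of -1.24 ± 0.36. Postn (periostin), the matricellular marker of activated fibroblasts, had 3.23, 2.86, 2.94 and 2.07 FPKM in Arrest and 4.38, 17.3, 8.82 and 3.66 FPKM in Adr (-1.13 ± 0.38). At both genes the high values were those of Adr replicates 2 and 3, which also held the atrial markers. Without these libraries the differences were -0.52 for Cilp, -0.42 for Postn, -1.15 for Comp, -1.15 for Ogn and -0.98 for Lum. The median of the matricellular list was then -0.16. Spp1 (osteopontin), made by macrophages, had 0.286 to 2.04 FPKM in Arrest and 1.6 to 21.5 FPKM in Adr, and the groups overlapped.

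Of 21 collagen genes tested, 19 had a lower mean in Arrest. Within an unadjusted p of 0.05, where 3.9% of all genes were lower, 6 of the 21 were lower and none higher. The median of the 21 was -0.38. Col8a1, a short-chain collagen of vessel walls and fibrotic matrix, had 2.27 to 2.83 FPKM in Arrest and 4.52 to 9.26 FPKM in Adr (-1.01 ± 0.19). The Naïve hearts had 2.71 to 3.62 FPKM of Col8a1, so every Adr heart lay above the Naïve range. It was the only collagen whose groups did not overlap. Col15a1 and Col6a3 differed by -1.25 ± 0.46 and -0.99 ± 0.38. Within the numbers 95 to 102 their differences were 0.14 and -0.01, so both rested on the other run, and the median of all collagens there was 0.04 against -0.67 within 70 to 73.

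All 10 fibroblast markers had a lower mean in Arrest, with a median of -0.32. Lum, Dpt and Tcf21, 3 of the 10, were lower within an unadjusted p of 0.05, against 3.9% of all genes. Tcf21, a transcription factor of resident fibroblasts, differed by -0.61 ± 0.19. The summed level of the 10 markers was 1057 to 1233 FPKM in Arrest and 1026 to 1722 FPKM in Adr, and so overlapped. Serpinf1 (pigment epithelium-derived factor), a secreted fibroblast protein, had 11.2 to 14.9 FPKM in Arrest and 18.1 to 31.2 FPKM in Adr (-0.81 ± 0.17). Akr1c14, an aldo-keto reductase acting on steroids, had 1.96, 2.18, 1.08 and 1.16 FPKM in Arrest and 5.04, 5.32, 4.0 and 3.69 FPKM in Adr, a difference of -1.10 ± 0.18.

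**Figure D2:**
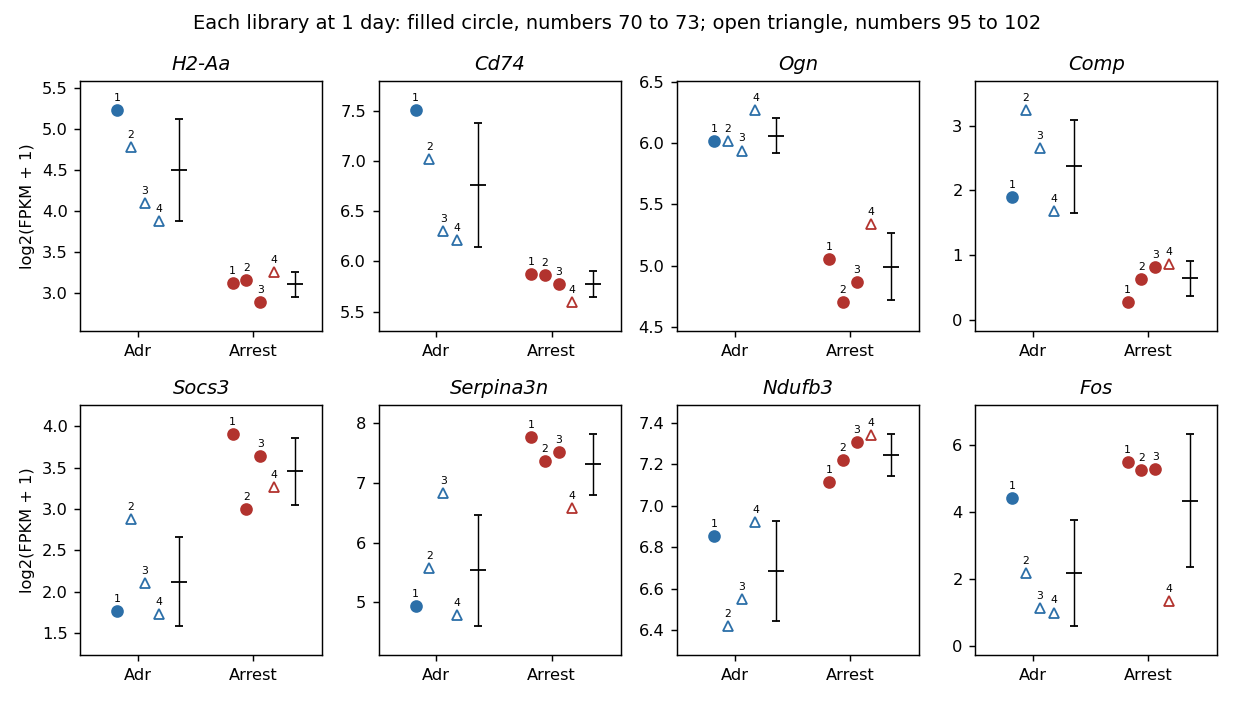
Each panel gives log2(FPKM + 1) of a gene in the 4 Adr (blue) and 4 Arrest (red) libraries, labelled by replicate, with filled circles for description numbers 70 to 73 and open triangles for 95 to 102, and the bar is the mean ± SD. H2-Aa, Cd74, Ogn and Comp are lower in every Arrest library, Socs3 and Ndufb3 are higher in every Arrest library, and for Fos Arrest replicate 4 lies with the Adr libraries.

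The interleukin-6 and STAT3 genes stood higher in Arrest. Of 16 tested, 5 were higher within an unadjusted p of 0.05 where 4.27% of all genes were, none was lower, and the median was 0.32. The best known direct target of STAT3 is Socs3, and the factor binds palindromes of the form TTCNNNGAA, so the 230 bases upstream of Socs3 and of Tnfaip6, another gene on the higher side, are shown. The intervals on GRCm38.p6 (RefSeq) are chr11:117969367-117969596 on the minus strand and chr2:52037883-52038112 on the plus strand, with the match in capitals.
Socs3: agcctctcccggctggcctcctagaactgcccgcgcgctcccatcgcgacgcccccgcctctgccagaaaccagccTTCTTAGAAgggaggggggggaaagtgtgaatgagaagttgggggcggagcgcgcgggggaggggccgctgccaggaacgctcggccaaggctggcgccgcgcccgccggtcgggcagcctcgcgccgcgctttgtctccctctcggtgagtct
Tnfaip6: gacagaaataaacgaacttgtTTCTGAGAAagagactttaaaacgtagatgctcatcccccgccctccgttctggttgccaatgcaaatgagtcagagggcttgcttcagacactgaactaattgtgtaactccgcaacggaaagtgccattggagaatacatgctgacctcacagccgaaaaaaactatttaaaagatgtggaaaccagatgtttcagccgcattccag

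The match began at position -154 in Socs3 and -209 in Tnfaip6. The motif reads the same on both strands, and 8.30% of the 32851 windows of 300 bases held it. Other genes on the higher side were not looked at for it, so its share among them is not known. Here too a match of letters is not a binding site, and the part of STAT3 in either difference was not tested.

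Socs3, the feedback inhibitor of the interleukin-6 receptor, had 14.0, 6.98, 11.5 and 8.64 FPKM in Arrest and 2.40, 6.37, 3.33 and 2.32 FPKM in Adr, a log2 difference of 1.33 ± 0.28 (unadjusted p = 0.00084). Every Arrest heart was above every Adr heart, with Adr replicate 2 nearest, and the Naïve hearts had 1.81 to 4.55 FPKM. Stat3 itself had 17.7, 17.7, 21.9 and 21.7 FPKM in Arrest and 13.3, 14.1, 15.9 and 9.36 FPKM in Adr (0.56 ± 0.16). Osmr, the oncostatin M receptor, had 6.02 to 7.29 FPKM in Arrest and 2.47 to 5.72 FPKM in Adr (0.59 ± 0.20).

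Ctf1 (cardiotrophin-1), a cytokine of this family, differed by 0.74 ± 0.21 without overlap, and Bcl3, an IkB-like partner of NF-kB induced by STAT3, by 0.61 ± 0.25 with overlap. Of these 5 genes only Bcl3, whose groups overlapped, could have turned its sign within a run of numbers. The Bcl3 differences were 0.13 within 70 to 73 and 1.22 within 95 to 102, and those of Socs3 were 1.75 and 1.03. Without Adr replicates 2 and 3 the Socs3 difference was 1.70.

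Acute phase genes included some of the largest differences. Serpina3n, a secreted protease inhibitor, had 218, 164, 183 and 94.7 FPKM in Arrest and 29.6, 46.6, 114 and 26.8 FPKM in Adr, a difference of 1.78 ± 0.43 (unadjusted p = 0.0020). Adr replicate 3 lay above Arrest replicate 4, so the groups overlapped at these hearts alone. Lcn2 (lipocalin 2), which binds bacterial siderophores, had 56.4, 18.9, 51.2 and 28.6 FPKM in Arrest and 3.97, 3.45, 28.0 and 9.52 FPKM in Adr (2.01 ± 0.57, unadjusted p = 0.0058). The same Adr heart was the high value. The Naïve hearts had 1.49 to 18.9 FPKM of Serpina3n and 0.227 to 3.42 FPKM of Lcn2, so the Adr hearts lay above the Naïve range of both genes, narrowly for Lcn2.

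Itih4, an inter-alpha-trypsin inhibitor heavy chain, had 2.30, 2.52, 6.61 and 1.29 FPKM in Arrest and 0.203, 1.12, 0.756 and 0.368 FPKM in Adr (1.26 ± 0.34). Saa3, a serum amyloid A, had 5.01, 1.44, 1.37 and 0.0679 FPKM in Arrest and 0.235, 0, 0.857 and 0 FPKM in Adr and missed the unadjusted threshold. Within an unadjusted p of 0.05, 3 of the 9 acute phase genes tested were higher and Spp1 was lower. Of all genes, 4.27% were higher and 3.9% lower. The liver makes most acute phase proteins, and the summed level of 9 liver markers overlapped, at 4.12 to 13.7 FPKM in Arrest and 3.77 to 26.8 FPKM in Adr, with Fgb at 0 in all 8 libraries.

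Tnfaip6 (TSG-6), which binds hyaluronan and links it to inter-alpha-trypsin inhibitor heavy chains, had 6.74, 3.86, 3.39 and 2.59 FPKM in Arrest and 1.67, 1.28, 1.12 and 0.975 FPKM in Adr, a difference of 1.13 ± 0.23 (unadjusted p = 0.00058). Has1, a hyaluronan synthase, had 4.36, 0.658, 0.976 and 1.83 FPKM in Arrest and 0.542, 0.643, 0 and 0.172 FPKM in Adr (1.02 ± 0.34). At Has1 the lowest Arrest heart and the highest Adr heart differed by very little. Tnfrsf12a (Fn14), the receptor of the cytokine TWEAK, had 82.7, 102, 44.0 and 35.6 FPKM in Arrest and 27.6, 34.4, 32.0 and 13.7 FPKM in Adr (1.21 ± 0.37), and there too the nearest hearts lay close together.

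Among clock genes Nfil3, a repressor that binds D-box sites, had 16.1, 12.3, 16.8 and 9.16 FPKM in Arrest and 7.15, 6.15, 4.13 and 3.71 FPKM in Adr. The difference was 1.22 ± 0.23 (unadjusted p = 0.00038), with no overlap, and it was 0.97 and 0.87 within the runs of numbers. Dbp and Hlf, activators that bind the same sites, differed the other way by -0.76 ± 0.30 and -0.56 ± 0.20, with overlap, and within the numbers 95 to 102 Dbp turned to 0.05, on the higher side. Cry2 and Arntl differed by 0.44 ± 0.19 and 0.63 ± 0.27, but within 95 to 102 by 0.04 and -0.07. With the run of numbers as a term in the limma fit, Arntl differed by 0.38 (unadjusted p = 0.22) and Cry2 by 0.54 (unadjusted p = 0.038). Of 19 clock genes tested, 3 were higher and 2 lower within an unadjusted p of 0.05 and the median was -0.09. Of all genes, 4.27% were higher and 3.9% lower at that threshold. The hour at which hearts were taken is not given in the sources used here, and its part was not tested.

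Immediate early genes encode transcription factors induced within minutes of a stimulus. Of 24 tested, 23 had a higher mean in Arrest, against 50.6% of all genes, and 7 were higher within an unadjusted p of 0.05, against 4.27%, with a median of 0.80. Fos had 43.7, 36.7, 37.9 and 1.55 FPKM in Arrest and 20.5, 3.54, 1.19 and 1.01 FPKM in Adr. Its high hearts were those with numbers 70 to 73 in both groups, and Arrest replicate 4 lay with the low Adr hearts. The differences within the runs were 0.91 and -0.09 against 2.15 ± 1.00 over all hearts, which missed the unadjusted threshold.

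Junb had 40.3, 56.6, 81.2 and 12.9 FPKM in Arrest and 38.7, 15.2, 12.1 and 7.08 FPKM in Adr, and its difference of 1.33 ± 0.58 was 0.55 and 0.21 within the runs. The median of the immediate early list was 0.36 within 70 to 73 and 0.01 within 95 to 102. Atf3 (1.67 ± 0.71 over all hearts) was an exception, with -0.05 and 2.23. Myc, a driver of growth and ribosome synthesis, had 6.55, 4.26, 6.21 and 3.36 FPKM in Arrest and 2.40, 1.36, 2.81 and 1.94 FPKM in Adr, without overlap, and its difference of 0.95 ± 0.22 was 0.95 and 0.55 within the runs. Klf4 had 51.4, 45.5, 71.7 and 23.8 FPKM in Arrest and 23.1, 15.9, 22.7 and 23.9 FPKM in Adr, so Arrest replicate 4 again lay with the Adr hearts. With the run of numbers as a term in the limma fit, the differences were 0.41 for Fos, 0.38 for Junb, 1.09 for Atf3, 0.71 for Klf4 and 0.75 for Myc. Of these, Klf4 (0.027) and Myc (0.0095) had an unadjusted p under 0.05, and Fos, Junb and Atf3 did not.

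**Figure D3:**
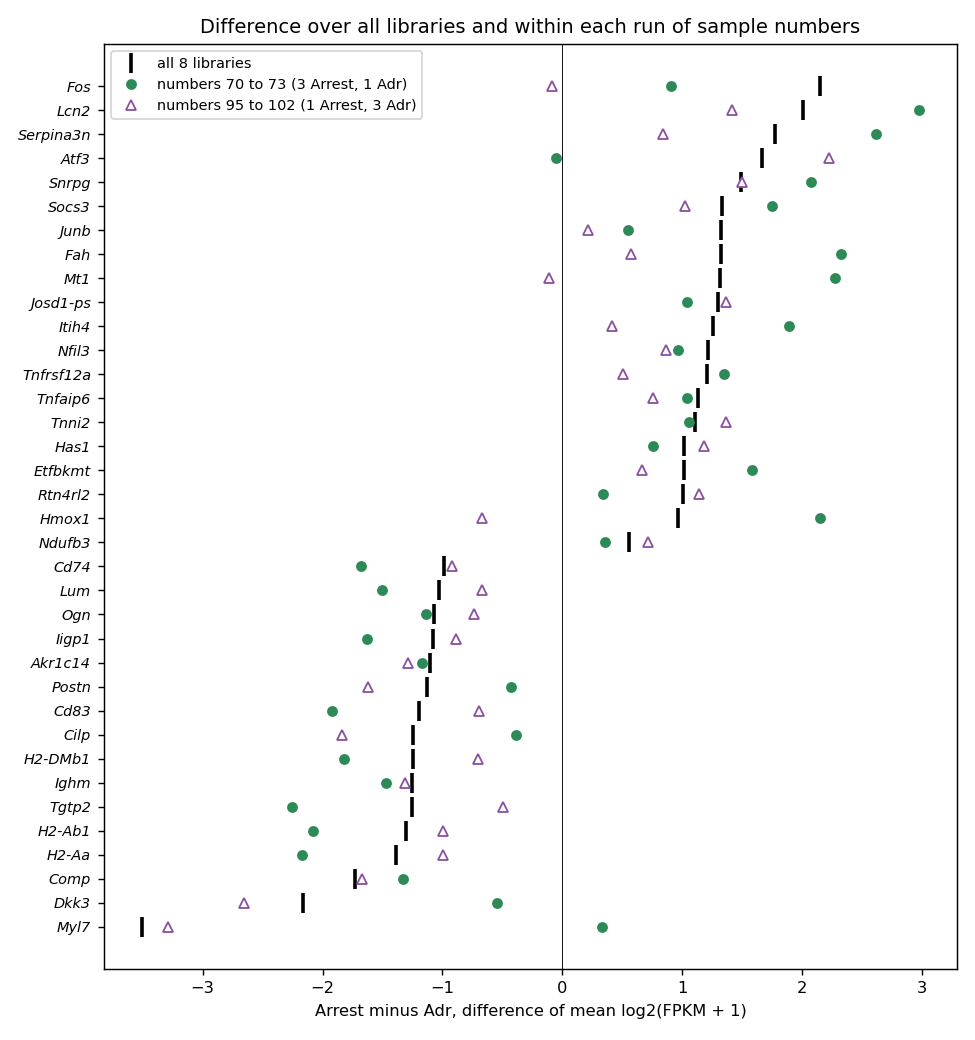
For 36 genes the x axis gives the Arrest minus Adr difference of mean log2(FPKM + 1) over all 8 libraries (bar), within description numbers 70 to 73 (circle, 3 Arrest and 1 Adr) and within 95 to 102 (triangle, 1 Arrest and 3 Adr). The class II genes, Ogn, Lum, Socs3 and Nfil3 keep their side in both runs, which follows from groups that do not overlap. Fos, Mt1 and Hmox1 lie at or below 0 within 95 to 102, and Myl7 lies above 0 within 70 to 73.

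Of 24 targets of NRF2, the factor that answers oxidants, 9 were higher in Arrest within an unadjusted p of 0.05, against 4.27% of all genes. None was lower, 23 of the means were on the higher side, against 50.6% of all genes, and the median was 0.33. Srxn1 (sulfiredoxin), which repairs oxidised peroxiredoxins, had 33.4, 16.6, 41.9 and 16.4 FPKM in Arrest and 9.94, 8.84, 16.9 and 7.5 FPKM in Adr (1.20 ± 0.33). A single Adr heart, replicate 3, reached the lower Arrest hearts. Txnrd1 (thioredoxin reductase) had 11.7 to 17.3 FPKM in Arrest and 6.28 to 10.5 FPKM in Adr without overlap (0.60 ± 0.18).

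Nqo1, a quinone reductase, and Gclm, the regulatory subunit of glutathione synthesis, differed by 0.67 ± 0.24 and 1.05 ± 0.41 with overlap. Gclm had 4.63 FPKM in Arrest replicate 4 and 15.3 to 21.3 FPKM in the other Arrest hearts, and its difference was 1.97 within 70 to 73 and -0.45 within 95 to 102. Hmox1 (haem oxygenase 1) had 54.8, 26.3, 83.3 and 12.9 FPKM in Arrest and 10.3, 40.6, 20.2 and 11.2 FPKM in Adr and did not reach the threshold. Mt1 (metallothionein 1), which binds zinc, had 1196, 735, 1556 and 350 FPKM in Arrest and 229, 247, 589 and 374 FPKM in Adr (1.31 ± 0.45), and within 95 to 102 its difference was -0.11. The median of the glucocorticoid list, which holds Mt1 too, was 0.75 over all hearts and -0.48 within 95 to 102.

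Genes of the respiratory chain stood slightly higher in Arrest. Of 36 nuclear genes of complex I, 35 had a higher mean, 9 were higher within an unadjusted p of 0.05 (4.27% of all genes) and the median was 0.27. Of 42 nuclear genes of complexes II to V, 40 had a higher mean, 12 were higher and the median was 0.27. None of either list was lower. The differences were small beside those of the genes above, and the medians dropped to 0.12 and 0.15 without Adr replicates 2 and 3 and to 0.13 and 0.10 after quantile normalization.

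Ndufb3, a complex I subunit, had 137, 148, 157 and 161 FPKM in Arrest and 115, 84.6, 92.7 and 120 FPKM in Adr, a difference of 0.56 ± 0.14 (unadjusted p = 0.0021) with no overlap. Cox6a2, the heart and muscle form of a cytochrome oxidase subunit, had 2203, 2329, 2775 and 2278 FPKM in Arrest and 1876, 1889, 1863 and 1887 FPKM in Adr (0.34 ± 0.11), though after quantile normalization its difference was -0.04. The 15 genes of the mitochondrial genome had none past the threshold, with a median of 0.19 that was 0.00 after quantile normalization. All 23 citric acid cycle genes had a higher mean in Arrest, against 50.6% of all genes. Of them, 4 were within an unadjusted p of 0.05, against 4.27% of all genes. The median was 0.20, or 0.067 after quantile normalization, 0.070 when scaled to fragments on genes and 0.12 without Adr replicates 2 and 3.

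All 32 genes of fatty acid uptake and oxidation had a higher mean, and 3 passed (4.27% of all genes did), with a median of 0.32. That median was 0.66 within the numbers 70 to 73 and 0.00 within 95 to 102, and 0.17 without Adr replicates 2 and 3. Plin2, which coats lipid droplets, had 40.4, 38.4, 37.7 and 16.7 FPKM in Arrest and 18.7, 17.3, 20.8 and 18.5 FPKM in Adr (0.72 ± 0.25), so that 3 Arrest hearts were near 40 and the fourth, replicate 4, was the lowest of all 8. Its difference within 95 to 102 was -0.16. Fabp3, the heart fatty acid binding protein, differed by 0.55 ± 0.23. The mitochondrial ribosome list held 9 of 57 genes past the threshold on the higher side with a median of 0.14, or 0.02 when scaled to fragments on genes, and the cytosolic ribosome held 0 of 72 on either side. Ventricular cardiomyocyte markers moved with these genes, with 6 of 6 means higher in Arrest, a median of 0.24, which was -0.01 after quantile normalization, and 1 member past the threshold. Their part in the mitochondrial result was not tested.

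Of 24 sarcomere and Z-disc genes, 20 had a higher mean in Arrest, against 50.6% of all genes. Within an unadjusted p of 0.05, 4 were higher and 1 lower, against 4.27% and 3.9% of all genes. The median was 0.23, or 0.01 after quantile normalization and 0.05 within the numbers 95 to 102. Xirp1, an actin-binding protein of the intercalated disc induced by stress, had 58.9, 57.4, 32.5 and 27.3 FPKM in Arrest and 20.6, 20.3, 25.6 and 18.8 FPKM in Adr (0.94 ± 0.25), without overlap. Nppb (brain natriuretic peptide), which marks wall stress, had 1881, 2289, 586 and 576 FPKM in Arrest and 901, 809, 247 and 430 FPKM in Adr, and its difference of 1.06 ± 0.55 missed the threshold. Myh7, the slow myosin heavy chain, had 7.79 to 12.1 FPKM in Arrest and 8.95 to 18.6 FPKM in Adr (-0.55 ± 0.22). The Myh7 difference turned to 0.11 within the numbers 70 to 73 and was -0.28 without Adr replicates 2 and 3. Tnni2, the fast skeletal troponin I, had 1.53, 3.59, 1.6 and 2.99 FPKM in Arrest and 0.500, 0.173, 0.497 and 1.11 FPKM in Adr (1.11 ± 0.25). Of 10 skeletal muscle markers, 8 were detected, and Myh4 and Tnnc2 were at 0 in all 8 libraries. The summed level of the 10 overlapped, at 390 to 520 FPKM in Arrest and 325 to 471 FPKM in Adr. Of 4 tested, 3 had a higher mean in Arrest, against 50.6% of all genes. Tnni2 alone was within an unadjusted p of 0.05, against 4.27% of all genes on the higher side.

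The largest differences of all tested genes were in atrial genes and came from a few libraries. Of the 4 atrial markers tested, 3 had a lower mean in Arrest and 1, Nppa, had a higher mean, by 0.16. Myl7, the atrial myosin light chain, had 0.461, 445, 89.6 and 14.1 FPKM in Adr replicates 1 to 4 and 1.16, 1.86, 0 and 7.69 FPKM in Arrest. Sln (sarcolipin), an inhibitor of the atrial calcium pump, had 0, 121, 20.4 and 1.12 FPKM in Adr and at most 0.637 FPKM in Arrest, and Myl4 had 0.147, 48.3, 14.6 and 6.64 FPKM in Adr and at most 0.851 FPKM in Arrest. Mybphl, an atrial myosin-binding protein, had 0, 14.4, 2.97 and 0.608 FPKM in Adr. Adr replicate 1 thus lay with the Arrest hearts, and replicate 2 far above all others.

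Dkk3, a secreted glycoprotein, had 1.82, 19.4, 27.1 and 2.61 FPKM in Adr and 0.659, 1.25, 0.945 and 1.02 FPKM in Arrest, so its high values were those of the same hearts, and its difference of -2.16 ± 0.68 was -0.71 without them. Cacna1g, a T-type calcium channel, had 1.37, 3.29, 1.83 and 1.55 FPKM in Adr and 0.173 to 0.951 FPKM in Arrest, and differed by -0.64 without them. The summed level of the 5 atrial markers was 32.7 to 72.7 FPKM in Arrest, 30.0 to 693 FPKM in Adr and 13.8 to 32.4 FPKM in Naïve, and Bmp10 was at 0 in all 8 libraries at 1 day. The part of atrial RNA in the other results was not tested beyond the values given without these hearts. Leaving them out kept Adr replicate 4, with its lesser atrial signal, and left only female Adr hearts.

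Of 16 neutrophil markers, 6 passed the filter, 5 of these had a higher mean in Arrest and 2 were higher within an unadjusted p of 0.05, where 4.27% of all genes were. Their median was 0.87, or 0.29 and 0.30 within the runs of numbers. Retnlg had 2.96, 0.763, 2.74 and 0.596 FPKM in Arrest against 0, 0, 0 and 1.11 FPKM in Adr, and S100a8 had 5.83, 2.42, 9.37 and 3.82 FPKM against 4.70, 1.68, 0.0894 and 1.34 FPKM. The Arrest values alone took Retnlg past the filter. Low genes can pass it through the group where they are high, so the counts of higher members are partly set by the filter. The summed level of the 16 was 10.4 to 30.8 FPKM in Arrest and 6.23 to 12.2 FPKM in Adr, with Ly6g, Elane and Cd177 at 0 in all 8 libraries. Inflammatory monocyte markers had none of 8 past the threshold. No T cell, NK cell or lung marker passed the filter.

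Of 21 cytokine and chemokine genes, 8 had a higher and 13 a lower mean in Arrest, and 1 was higher and 2 lower within an unadjusted p of 0.05, against 4.27% and 3.9% of all genes. Cxcl14, a chemokine made by stroma, had 24.3, 29.8, 37.7 and 35.6 FPKM in Arrest and 13, 9.65, 24.3 and 14.2 FPKM in Adr (1.07 ± 0.25, unadjusted p = 0.0017). Arrest replicate 1 and Adr replicate 3 had nearly the same value. Cxcl9, induced by interferon gamma, and Ccl8, a macrophage chemokine, differed by -0.84 ± 0.28 and -1.42 ± 0.56 with overlap. Thbd (thrombomodulin), which holds back clotting on endothelium, had 43.6 to 52.5 FPKM in Arrest and 28.9 to 37 FPKM in Adr without overlap (0.45 ± 0.12), and Vcam1, an adhesion molecule for leukocytes, differed by -0.56 ± 0.17 with overlap. None of 12 endothelial markers passed the threshold.

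The remaining genes of the 12 largest on the higher side were of varied function. Fah, the last enzyme of tyrosine breakdown, had 23.7, 21.2, 35.9 and 16.7 FPKM in Arrest and 4.45, 7.02, 13.3 and 13.7 FPKM in Adr (1.32 ± 0.34). Etfbkmt, a methyltransferase of the electron transfer flavoprotein, differed by 1.02 ± 0.28 and Rtn4rl2, a Nogo receptor relative, by 1.01 ± 0.31. Snrpg, a core protein of the spliceosome, had 15.2, 15.1, 17.8 and 19.9 FPKM in Arrest and 3.03, 5.47, 3.16 and 14.1 FPKM in Adr (1.49 ± 0.37). Snrpg also ran from 0 to 16.6 FPKM among the Naïve hearts. Josd1-ps, a pseudogene, differed by 1.30 ± 0.28. Josd1-ps, Snrpg, Tgtp2 and Serpina3n have close copies in the genome, and how reads shared between copies were counted is not given in the sources used here, so their values are uncertain. Outside the 12, Gadd45g, a growth arrest gene, differed by 1.24 ± 0.39 and Cdkn1a, the p21 cell cycle inhibitor, by 1.08 ± 0.50. The groups overlapped at both, and Cdkn1a missed the unadjusted threshold. Within the numbers 95 to 102 their differences were negative, at -0.10 and -0.67.

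**Figure D4:**
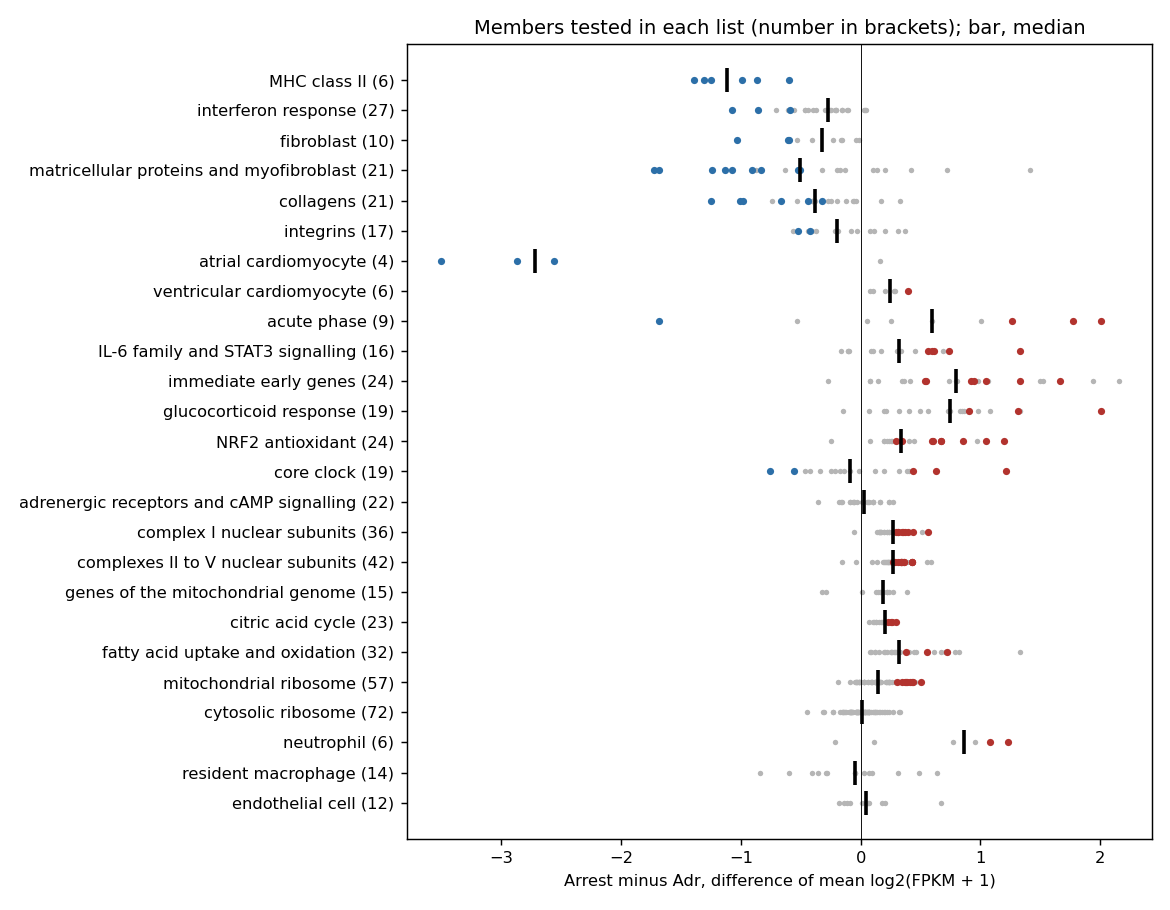
Each row is a gene list with the number of members tested in brackets, each point is a member at its Arrest minus Adr difference of mean log2(FPKM + 1), red and blue points are higher or lower in Arrest within an unadjusted p of 0.05, and the bar is the list median. MHC class II has its median at -1.12 and immediate early genes at 0.80. No member of the adrenergic or cytosolic ribosome lists is coloured, where 8.17% of all genes tested would be.

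Adrenaline reached both groups. The 22 genes of adrenergic receptors and cyclic AMP signalling tested ranged from -0.35 to 0.27. None of the 22 was within an unadjusted p of 0.05, against 8.17% of all genes, and in so short a list this is near that share. The part of adrenaline in this was not tested. Within an unadjusted p of 0.05, where 4.27% of all genes were higher and 3.9% lower, heat shock proteins had 3 of 26 higher with 14 means on the higher side and 12 on the lower, NF-kB and innate signalling genes had 1 of 21 higher and 1 lower, and proliferation genes had 1 of 12 lower.

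The same genes were looked up at the other times of the series, in other hearts. At 0.5 days, 11 of the 12 higher genes and 11 of the 12 lower genes had the same direction between Arrest and Adr, with medians of 0.61 and -0.37, where 50.1% of all tested genes were higher and 49.9% lower. At 3 days the counts were 4 and 8 of 12 and at 7 days 8 and 10 of 12. The median of the higher genes was -0.07 at 3 days and 0.05 at 7 days. The median of the lower genes was -0.31 and -0.52.

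H2-Aa differed by -0.68 at 0.5 days, -0.73 at 3 days and -0.52 at 7 days, with the groups overlapping at each. Its median in Arrest was 10.4 FPKM at 0.5 days, 7.86 FPKM at 1 day, 20.6 FPKM at 3 days and 24.2 FPKM at 7 days, and in Adr it was 26.3, 21.3, 30.0 and 34.3 FPKM. Ogn differed by -0.58 at 0.5 days, -0.01 at 3 days and -0.24 at 7 days, and Ighm by -0.15, -0.15 and -0.04. Postn differed by -0.25 ± 0.27 at 0.5 days, 0.99 ± 1.64 at 3 days and -0.64 ± 0.74 at 7 days (SE).

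Socs3 differed by 1.25 at 0.5 days with overlapping groups, by -0.07 at 3 days and by 0.12 at 7 days. Lcn2 differed by 2.23, 1.30 and -0.37 at these times and Nfil3 by 1.21, 0.21 and 0.04. Stat3, Nfil3 and Tnfaip6 were higher in every Arrest heart than in every Adr heart at 0.5 days as well. Snrpg differed by -0.12 at 0.5 days, -0.88 at 3 days and 0.58 at 7 days. Whether the differences changed between times was not tested.

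**Figure D5:**
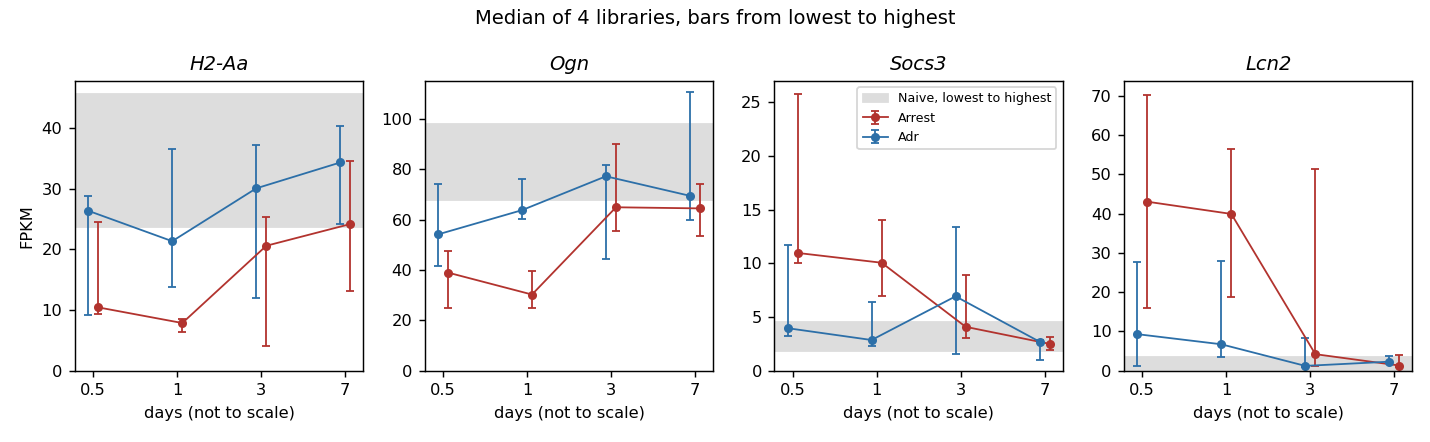
FPKM of H2-Aa, Ogn, Socs3 and Lcn2 at each of 4 times after the procedure, given in days, in Arrest (red) and Adr (blue), as the median of 4 libraries with bars from lowest to highest, over the range of the 5 Naïve libraries (grey). At 1 day the Arrest bars of H2-Aa and Ogn lie below those of Adr and the Socs3 bar lies above, and the Lcn2 bars overlap.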

How the data were processed

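Left ventricular RNA of Arrest and Adr mice at 1 day was sequenced as paired reads, aligned with HISAT2 and summarised per gene by the authors, who deposited a table of FPKM values. The genome build, the annotation and the counting tool are not given in the sources used here, and gene coordinates of the table are therefore not printed. Depth was recovered from the FPKM steps, since all values were whole multiples of what 1 fragment is worth, within a tolerance of 0.01. Genes reaching 0.5 FPKM in 4 or more of these 8 libraries were fitted as log2(FPKM + 1) with limma 3.58.1 (trended prior variance, R 4.3.3) on these 8 libraries alone, and p-values were adjusted by Benjamini and Hochberg over all 13246 genes. The unit calls for this test and not for a count model, so no count model was used other than voom as an alternative. The test was checked on simulated data. Library measures were compared by exact permutation, where 4 against 4 cannot go below 0.029.

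Named were the 12 largest non-overlapping differences each way with a mean of at least 1 FPKM and no predicted symbol, and from each gene list up to 4 members with the smallest p or needed to say what the list holds. The lists, the genes and the comparison were chosen with earlier results of these data known. Same-numbered replicates did not deviate together (correlations from -0.21 to 0.08 over 4 pairs), so the numbers do not pair the hearts. No libraries of a group agreed within counting noise in 12 pairs. Promoters and their motifs are from RefSeq, GRCm38.p6. H2-Ab1, Cd74 and Lum had no entry.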

Additional observations from a re-analysis of the deposited data

Results flagged for a closer look

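In a group of 4, a value was picked out when its gap to the nearest other value, as a share of the group's range, passed Dixon's critical value, which chance does in about 1 group in 20. Of 170 gene values by group, these were Fos (1.55 FPKM) and Plin2 (16.7 FPKM) low and Cry2 (3.82 FPKM) low in Arrest replicate 4, Cd83 (0.572 FPKM) low in Arrest replicate 3, Mybphl (0.557 FPKM) high in Arrest replicate 2, Thbd (28.9 FPKM) low and Retnlg (1.11 FPKM) high in Adr replicate 4, and Klf4 (15.9 FPKM) low in Adr replicate 2. Arrest replicate 4 was also the only Arrest heart with a number between 95 and 102.

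Among library measures, Adr replicate 4 stood apart with 25.9 M fragments and 21356 genes above 0, and Arrest replicate 1 with 16812 genes above 0. Arrest replicate 3 stood apart with a rank correlation with gene length of -0.164. That correlation was taken on deviations of log2(FPKM + 1) from each gene's mean over the 8 libraries.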

How the results depend on the processing

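The count of genes within an adjusted p of 0.05 was 0 in 18 of 21 alternatives. It was 1 with limma's voom on recovered fragments (Ogn, adjusted p = 0.043), and it ran from 0 to 4 when a replicate was left out. The 4 genes without Arrest replicate 4 were Ogn, Abra, Plin2 and Gadd45g, of which Abra is named here for this call alone, and the 2 without Adr replicate 4 were Snrpg and a predicted gene. Within an unadjusted p of 0.05 the count ran from 693 to 1493 when a replicate was left out, and from 792 to 1416 in the other alternatives, against 1082. The causes were not tested. With the replicate block, that is the replicate number as a term, 927 genes passed the unadjusted and 0 the adjusted threshold, and that block changed no adjusted call. Adr replicates 2 and 3 left out together gave 792 and the run of description numbers as a term 865, both alternatives chosen after the data were seen.

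Of the named genes, 1 turned direction in 1 alternative, namely Cox6a2 with quantile normalization (-0.041). The difference in genes with a value above 0 was -146.5 and turned to 59 over the genes tested, to 956 without Adr replicate 4 and to 217 without Arrest replicate 1. Its values without a replicate ran from -622 to 956. With 4 hearts a group, a difference that was not called may be missed.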

Other observations

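Other gene groups held a few members on the higher side in Arrest, against 4.27% of all tested genes within an unadjusted p of 0.05 by limma. Of 20 genes of the ATF4 stress response 4 were higher, of 25 atrophy and autophagy genes 4 were higher and of 23 ribosome biogenesis genes 2 were higher, with none lower. Rrs1, which helps assemble the large ribosomal subunit, differed by 0.78 ± 0.15. Ninj1, which ruptures the membrane of dying cells, differed by 0.80 and Pgf (placental growth factor) by 0.74. Of 26 heat shock proteins, Hspb1, a small chaperone of muscle, differed by 0.48.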
